A study of Mus musculus with 8 samples.

Results

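The nuclear-encoded subunits of the mitochondrial respiratory chain and of ATP synthase were compared between the hippocampus of BTBR and B6 mice. Members were chosen by gene name alone, as all Nduf subunits of the a, b, c, s and v series, all Uqcr genes, the Cox4 to Cox8 genes and all Atp5 genes, and this gave 112 probes for 79 gene names among 41174 non-control probes on the array. Of these, 108 probes for 77 names were measured well enough to be tested. Both strains are inbred and received no drug: BTBR (BTBR T+ Itpr3tf/J) is used as a mouse model of autism, and B6 (C57BL/6J, labeled wild type) was its control. The 8 mice, 4 per strain, were labeled male, 5 months old, and whole hippocampus was taken from each for 1 single-color Agilent array. C57BL/6J is also entered as strain background of the BTBR mice, whose title, source and genotype labels name BTBR. Values are normalized log2 intensities, and a strain difference is always BTBR minus B6.

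The respiratory chain passes electrons from NADH and succinate to oxygen and pumps protons across the inner mitochondrial membrane, and ATP synthase uses the proton gradient to make ATP. Complex I (the Nduf genes) takes electrons from NADH, complex III (Uqcr) passes them from ubiquinol to cytochrome c, and complex IV, or cytochrome c oxidase (Cox), hands them to oxygen. Neurons depend on this chain for most of their ATP, and several complex IV subunits exist as an isoform used by most tissues and another that is largely restricted to muscle, lung or testis.

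Between 56.8% and 71.9% of all probes were well above background on an array, no member probe was saturated or carried an outlier flag, and the signal of 106 of the 112 member probes passed that limit on every array. The arrays lay on 2 slides, with replicates 1 and 2 of both strains on slide 1 and replicates 3 and 4 on slide 2. Beside every result below stand differences in marker genes, within the BTBR group and between the strains, and their part in the results was not tested. The mean level of 6 choroid plexus genes was 13.30 and 13.19 on BTBR replicates 1 and 2, 11.41 and 11.27 on replicates 3 and 4, and from 11.01 to 12.50 on the B6 arrays. For 7 hippocampus genes the mean was 12.10 and 11.80 on BTBR replicates 1 and 2, 13.56 and 13.31 on replicates 3 and 4, and from 12.76 to 13.55 in B6. The 6 thalamus genes averaged 13.26 on BTBR replicate 1 and from 10.19 to 10.93 on the other BTBR arrays, against 10.27 to 10.81 in B6. Every gene of these 3 lists was well above background on each of the 8 arrays. The mean of 8 astrocyte genes lay from 13.80 to 13.91 in B6 and from 13.47 to 13.66 in BTBR, without overlap, and 1 of them was called, Gfap, at -1.30 at its most changed probe. The mean of 8 neuron genes lay from 15.31 to 15.40 in B6 and from 15.19 to 15.38 in BTBR, and 3 of them had a probe called lower, with Nefl at -1.93, Syt1 at -0.71 and Map2 at -0.34. These are the most changed probes of each gene, and the brightest of the 6 Syt1 probes read from 17.15 to 17.29 in B6 and from 17.08 to 17.35 in BTBR. Of the neuron genes not called, Snap25 differed by 0.17, Tubb3 by 0.15, Gad1 by 0.26, Slc17a7 by -0.27 and Rbfox3 by -0.11. The mean of 8 oligodendrocyte genes was 14.47 and 14.68 on BTBR replicates 1 and 2, 14.04 and 13.78 on replicates 3 and 4, and from 14.00 to 14.17 in B6. Of 8 microglia genes Cx3cr1 was called at 1.41 and Itgam at -0.40, and of 6 meninges genes Igf2 was called at 1.24, each at its most changed probe. The median difference was -0.05 over the microglia list, 0.28 over the meninges list and -0.17 over the astrocyte list. In RNA from whole tissue, fewer cells of a type and less RNA per cell cannot be told apart.

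Most subunits differed little between the strains. Limma called 4 of the 108 member probes (3.7%) at an adjusted p under 0.05, against 7.61% of all 27982 probes tested. Each came from a different gene, so that 4 of 77 subunit genes (5.19%) had a called probe, where 10% of all gene names did. The single probes of Cox7c and Cox7b2 and 1 of 3 probes of Ndufa12 were higher in the BTBR hippocampus and 1 of 2 probes of Atp5j2 was lower, against a background of 3.31% of probes called higher and 4.3% called lower. With median centring in place of quantile normalization the split was 2 genes higher and 4 lower. At an unadjusted p under 0.05 there were 15 member probes (13.9%), against 18.5% of all probes. The arrays of the strains did not overlap for 18 member probes (16.7%), against 14.2%. The median difference was 0.02 over the members and 0.01 over all probes, and with median centring it was -0.03 and -0.01. For 94 members (87.0%) the difference was smaller than 0.2 in either direction, against 73.8% of all probes, and for 96 (88.9%) the 95% interval lay within 0.5 of 0, against 75.4%. The median SD within a strain was 0.085 for the members and 0.132 for all probes. The members were not set against probes of like signal level, and the part of signal level in these contrasts was not tested.

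**Figure D1:**
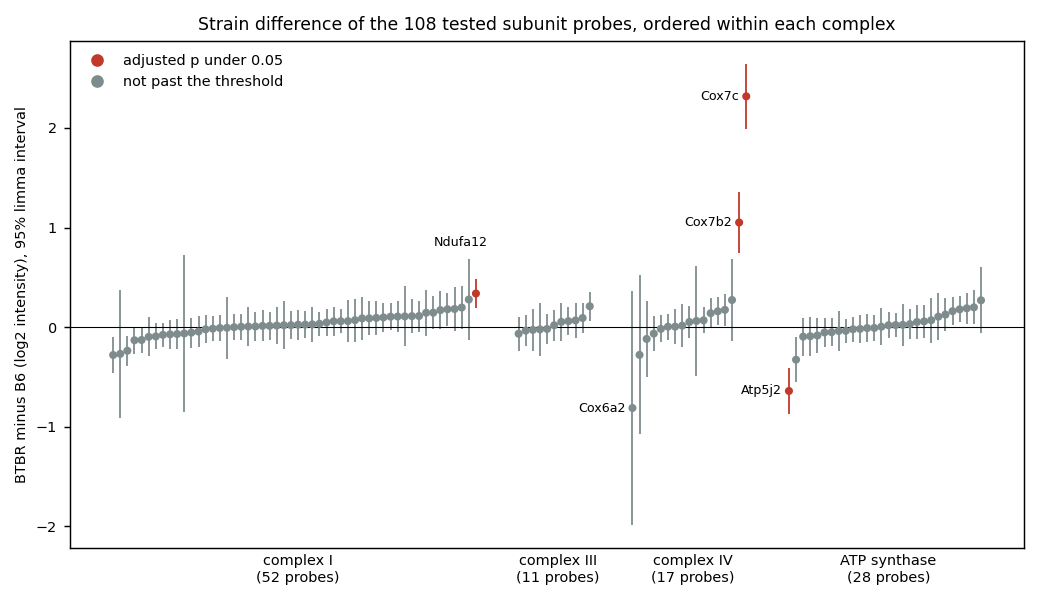
Strain difference (BTBR minus B6, log2 intensity, vertical axis) of each of the 108 tested subunit probes, ordered by size within each complex along the horizontal axis, with bars for the 95% limma interval. Red points are the 4 probes with an adjusted p under 0.05, Cox7c at 2.32, Cox7b2 at 1.05, Ndufa12 at 0.34 and Atp5j2 at -0.64, and most other points lie within 0.2 of 0.

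The probes of the 4 genes with a called probe are shown here because the calls belong to single 60-base probes. Their genome positions are those the array files give on mm9, and exon annotation of that build was not used here. Capitals mark the 40 bases that a pair of Ndufa12 probes share, and all letters of the other probes are in lower case.
Cox7c A_52_P136153, chr13:86184486-86185363, minus strand: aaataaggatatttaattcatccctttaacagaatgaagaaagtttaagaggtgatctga
Cox7b2 A_51_P361111, chr5:71834459-71894699, minus strand: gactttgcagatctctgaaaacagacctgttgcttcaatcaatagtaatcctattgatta
Ndufa12 A_51_P458538, chr10:93662740-93666054, plus strand: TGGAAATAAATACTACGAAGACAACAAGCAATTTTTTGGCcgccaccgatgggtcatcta
Ndufa12 A_51_P458540, chr10:93662720-93666034, plus strand: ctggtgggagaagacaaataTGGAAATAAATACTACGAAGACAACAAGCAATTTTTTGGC
Ndufa12 A_52_P724940, chr10:93683562-93683621, plus strand: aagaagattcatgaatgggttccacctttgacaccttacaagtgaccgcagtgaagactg
Atp5j2 A_52_P550474, chr5:145950674-145950733, minus strand: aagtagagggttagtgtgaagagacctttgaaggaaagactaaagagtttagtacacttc
Atp5j2 A_51_P224216, chr5:145945453-145945512, minus strand: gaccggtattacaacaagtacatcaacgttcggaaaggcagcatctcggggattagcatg
The Cox7c, Cox7b2 and first 2 Ndufa12 probes are placed over spans longer than their 60 bases (878, 60241 and 3315 bases), which means that they join separate stretches of the genome. Probes with a span over 62 bases numbered 22 among those tested.

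Cox7c encodes a small structural subunit of cytochrome c oxidase that has no tissue isoform, and it had a single probe on the array (NM_007749). The 4 B6 arrays read 7.68, 7.78, 7.79 and 8.05, and the BTBR arrays read 9.82, 10.52, 10.11 and 10.13. Every BTBR array was thus above every B6 array, and in B6 the probe was well above background on only 1 of 4 arrays, against 4 of 4 in BTBR. The probe thus entered the test through BTBR alone, and it drops out where only probes well above background on all 8 arrays are tested. The difference was 2.32 (SE 0.14) with a limma adjusted p of 1.28e-05, and of 1.66e-05 with no filter on dim probes. With each B6 array set no lower than its own lowest signal well above background, it was 2.20. Since most B6 readings were near background, its size is not fixed by these data. The scanner software's processed signal, to which no offset was added, gave 5.08, and the deposited matrix gave 1.72. In BTBR too the probe was dim beside that of Cox6b1, a common complex IV subunit, which read from 13.50 to 14.51 there. Whether the Cox7c probe follows the main Cox7c transcript was not tested. Nor was it tested whether this probe matches the Cox7c transcripts of both strains equally. Within slide 1 the difference was 2.44 and within slide 2 it was 2.20. With BTBR replicates 3 and 4 alone it was 2.29 (limma adjusted p 3.97e-05).

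Cox7b2 encodes an isoform of subunit VIIb that is best known from testis, whereas Cox7b is the isoform of most tissues. Its probe (NM_030052) read 8.82, 8.41, 8.38 and 8.40 in B6 and 9.70, 9.53, 9.25 and 9.73 in BTBR. All 8 arrays were well above background, the strains did not overlap, and the highest B6 array was replicate 1. Means were 8.50 ± 0.21 in B6 and 9.55 ± 0.22 in BTBR (SD, n = 4 each). Cox7b2 was up-regulated by 1.05 (SE 0.14, 95% interval 0.74 to 1.36), 2.07-fold, with a limma adjusted p of 0.0014. The exact two-sided permutation p over the 8 arrays was 0.0286, the smallest that 4 arrays against 4 allow. The difference was 1.0 within slide 1, 1.10 within slide 2 and 0.99 with BTBR replicates 3 and 4 alone (limma adjusted p 0.019). With the processed signal, to which no offset was added, it was 1.83, outside the 95% interval above, so its size depends on the processing. The common isoform Cox7b (NM_025379) did not pass the test, with a difference of 0.07 (95% interval -0.06 to 0.20) and a limma adjusted p of 0.62.

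Ndufa12, an accessory subunit of complex I, was measured by 3 probes of NM_025551, and only 1 of them was called. The called probe A_51_P458538 read 14.63, 14.60, 14.67 and 14.75 in B6 and 14.92, 15.09, 15.00 and 15.00 in BTBR, with no overlap. It was higher by 0.34 (SE 0.06, 1.26-fold, limma adjusted p 0.012), by 0.39 within slide 1 and by 0.29 within slide 2, where it was not called (limma adjusted p 0.22). The call was also lost with the replicate block (limma adjusted p 0.053), median centring (0.072), the processed signal (0.12) and the rank product (pfp 0.36). Probe A_51_P458540, which shares the capitalized run with it, differed by 0.28 with a wider spread (SE 0.18, limma adjusted p 0.48) and overlapping arrays. The downstream probe A_52_P724940 read 16.53, 16.46, 16.51 and 16.46 in B6 and 16.25, 16.39, 16.41 and 16.37 in BTBR. All its BTBR values were below the B6 values, and the difference of -0.13 (SE 0.06) had a limma adjusted p of 0.29.

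Atp5j2 encodes subunit f of the membrane part of ATP synthase, and its probes differed in direction. A_52_P550474, designed on the GenBank entry AK153846, read 9.60, 9.37, 9.21 and 9.35 in B6 and 8.62, 8.62, 8.83 and 8.90 in BTBR. The strains did not overlap, and the probe was lower in BTBR by 1.56-fold, a difference of -0.64 (SE 0.10, 95% interval -0.87 to -0.41) with a limma adjusted p of 0.0047. That difference was -0.87 within slide 1 and -0.42 within slide 2, and the call was lost within slide 2 (limma adjusted p 0.10). With the processed signal, to which no offset was added, it was -1.0, outside the 95% interval above, so its size depends on the processing. A_51_P224216, designed on the RefSeq mRNA NM_020582, read 16.42, 16.45, 16.49 and 16.36 in B6 and 16.65, 16.78, 16.47 and 16.61 in BTBR. Its BTBR values were higher except on replicate 3, and the difference of 0.20 (SE 0.08, limma adjusted p 0.19) was not called. Whether the Atp5j2 probes match the transcripts of both strains equally was not tested.

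**Figure D2:**
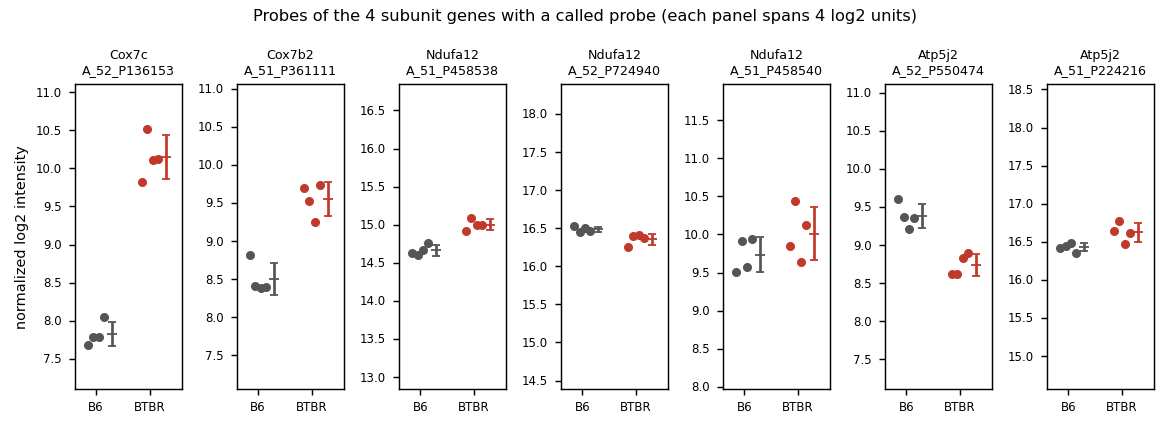
Normalized log2 intensity (vertical axis, 4 log2 units in every panel) of each probe of Cox7c, Cox7b2, Ndufa12 and Atp5j2 on the 4 B6 arrays (gray) and the 4 BTBR arrays (red). Points are single mice, with the mean and SD of each strain beside them, and the called probes of Ndufa12 and Atp5j2 stand next to probes of the same gene that differed less or in the other direction.

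Complex I contributed 52 of the tested probes, for 36 genes, and Ndufa12 was its 1 called gene (1.92% of probes). The median difference was 0.02, with a range from -0.28 to 0.34, and 34 probes (65.4%) were higher and 18 lower in BTBR, against 53.3% higher of all probes. With median centring the split was 23 higher and 29 lower (47.2% of all probes higher), so this direction depends on the scaling. Several core subunits, which carry the flavin and the iron-sulfur clusters or bind ubiquinone, lay close to 0. Ndufs1 differed by -0.02, Ndufs7 by 0.06, Ndufs8 by -0.01 and Ndufv1 by 0.03, none of them called. Ndufv2 differed by -0.05 at its RefSeq probe and by 0.01 at the AK044019 probe, which was well above background on 3 of 4 arrays in each strain.
The largest fall in complex I was that of Ndufc2, a membrane arm subunit. It read 16.45, 16.52, 16.52 and 16.32 in B6 and 16.26, 16.26, 16.04 and 16.12 in BTBR. No BTBR array reached the lowest B6 array, and the difference of -0.28 (SE 0.08, 95% interval -0.46 to -0.10) missed the threshold with a limma adjusted p of 0.069. It passed with the slide as a block (limma adjusted p 0.044), with median centring (0.032) and with trend and robust options (0.048). Ndufa11, another membrane arm subunit, differed by -0.24 at one probe (limma adjusted p 0.069) and by -0.04 at a second probe that shares 50 of its bases. The first probe passed in the deposited matrix (limma adjusted p 0.045) and with median centring (0.049). Ndufv3, an accessory subunit of the NADH-binding module, had 3 probes without overlap between the strains, 1 higher by 0.18 and the others lower by 0.13 and 0.09, and none was called. Ndufa4, now counted with complex IV, differed by 0.01. The second probes of Ndufs4 and Ndufs5, designed on GenBank entries, were not well above background on any array, while their RefSeq probes differed by 0.09 and 0.06.

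In complex III none of 11 probes for 8 genes was called with limma, 1 had an unadjusted p under 0.05, and all 95% intervals lay within 0.5 of 0. That 1 probe belonged to Uqcrc2, a core protein of the complex, with 16.14, 16.12, 16.12 and 16.21 in B6 and 16.29, 16.33, 16.33 and 16.48 in BTBR. All BTBR values were above the B6 values, by 0.21 on average (SE 0.06, 95% interval 0.07 to 0.35, limma adjusted p 0.093). Uqcrc1, the other core protein, differed by -0.02 at both of its probes. The largest fall was that of Uqcrfs1, the Rieske iron-sulfur protein, at -0.07 (95% interval -0.24 to 0.11). The small subunits Uqcrb, Uqcrq, Uqcrh, Uqcr10 and Uqcr11 lay between -0.04 and 0.09.

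Complex IV held 17 tested probes for 16 genes, with 2 called (11.8%), Cox7c and Cox7b2. The isoforms of most tissues were close to 0. Cox4i1 differed by 0.01 (95% interval -0.17 to 0.18), Cox6a1 by 0.00 (-0.13 to 0.13) and Cox8a by -0.07 (-0.24 to 0.11). Cox7a2 was higher by 0.16 and 0.14 at probes that share 48 bases, and Cox5a, a subunit with a single form, by 0.17, none past the adjusted threshold. Cox7a2l, which helps to join complexes III and IV into supercomplexes, differed by 0.05. Over 7 probes of the common isoforms the median SD within a strain was 0.076, and over the 5 tested restricted isoforms it was 0.302.
Cox6a2, the isoform of heart and skeletal muscle, had the widest spread of all members. The B6 arrays read 13.37, 13.51, 13.32 and 12.81, and the BTBR arrays read 13.99, 12.74, 11.20 and 11.83. BTBR replicate 1 was the highest of the 8 arrays and the other BTBR arrays were below all B6 arrays. The difference of -0.81 had an interval from -1.99 to 0.36 and a limma adjusted p of 0.47, and the exact permutation p was 0.257. Within slide 1 it was -0.07 and within slide 2 it was -1.55 (unadjusted p of the slide by strain term in limma 0.035, adjusted 0.49). The rank product, which ranks probes within pairs of arrays and does not use the spread between mice, called Cox6a2 at a pfp of 0.027, among 4 member probes in all (3.7%, against 3.93% of all probes). BTBR replicates 3 and 4, chosen after seeing the data, held the lowest BTBR readings of Cox6a2. A larger fall with them alone was thus fixed in advance. The difference was -1.74 with them, and without BTBR replicate 1 limma gave -1.33 with an adjusted p of 0.065. Without BTBR replicate 3 the difference was -0.40 (limma adjusted p 0.64) and without BTBR replicate 4 it was -0.61 (0.62). BTBR replicate 1, the array with the high thalamus markers given above, was also the one with the high Cox6a2 reading, and the part of those cells in the result was not tested.
Cox8b, also a muscle isoform, read 11.42, 12.34, 12.35 and 11.79 in B6 and 11.91, 12.51, 11.57 and 10.80 in BTBR, and Cox7a1 read 12.21, 12.20, 12.35 and 11.92 in B6 and 12.27, 12.41, 11.83 and 11.70 in BTBR. For both, BTBR replicates 3 and 4 lay below replicates 1 and 2, and the strains overlapped. Of 6 striated muscle markers, 5 were tested and 1 was called, Myl1, a myosin light chain, higher in BTBR by 1.26 (SE 0.20, limma adjusted p 0.0045). Ckm, the muscle creatine kinase, stayed below the well-above-background limit on each of the 8 arrays, and the median difference of the 5 tested genes was -0.18. The mean level of the list lay from 9.72 to 9.99 in B6 and from 9.65 to 10.07 in BTBR, and the part of muscle RNA in these results was not tested. Cox6b2, a testis isoform, differed by 0.62 within slide 1 and by -0.08 within slide 2, with 0.27 over both (limma adjusted p 0.50). The lung isoform Cox4i2 and the testis isoform Cox8c were not well above background on any array, so no difference is given for them.

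**Figure D3:**
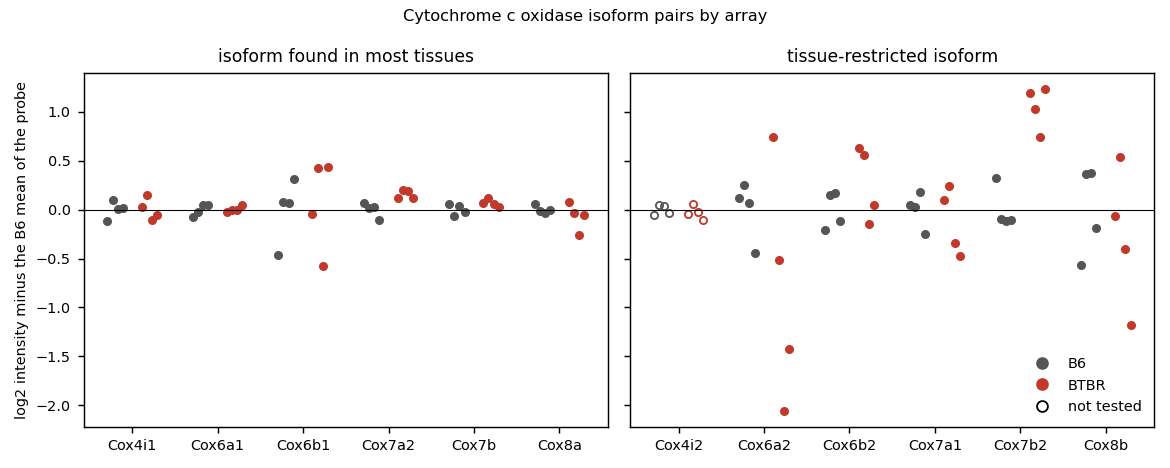
Log2 intensity minus the B6 mean of the same probe (vertical axis) for paired cytochrome c oxidase isoforms on each array, with the isoform of most tissues on the left, the tissue-restricted one on the right, B6 in gray and BTBR in red. Open points mark Cox4i2, which was not tested. Cox7b2 separates the strains, whereas Cox6a2 and Cox8b spread over more than 1 log2 unit within BTBR.

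ATP synthase contributed 28 tested probes for 17 genes, with a median difference of 0.01 and 1 called probe (3.57%), that of Atp5j2. In the catalytic head, Atp5a1 (subunit alpha) differed by -0.05 at both probes and Atp5c1 (gamma) by -0.04. Atp5b (beta) differed by 0.05, 0.06 and 0.07 at its 3 RefSeq probes and by -0.33 at a probe designed on an Ensembl transcript (SE 0.10, limma adjusted p 0.10, and 0.047 with median centring). Atp5d (delta) was higher by 0.16 without overlap between the strains, with a limma adjusted p of 0.20. In the stalks, Atp5f1 differed by -0.04 at its RefSeq probe, Atp5o by 0.02 and Atp5j by -0.01.
The c ring that turns with the proton flow is encoded by Atp5g1, Atp5g2 and Atp5g3, which differed by 0.13, by 0.18 and 0.27, and by -0.01. Probe A_52_P287002 of Atp5g2 had the largest rise in the complex. It read 14.89, 14.99, 14.95 and 14.90 in B6 and 15.41, 15.38, 14.72 and 15.30 in BTBR. Only BTBR replicate 3 lay below the B6 arrays. The difference of 0.27 had a limma adjusted p of 0.38, and without BTBR replicate 3 it was 0.43 with an adjusted p of 0.0048. The second Atp5g2 probe was higher on all BTBR arrays, by 0.18 (limma adjusted p 0.12). Atp5k (subunit e), at 0.02, is placed on chromosome Y by the array file and on chromosome 5 by the RefSeq gene list of GRCm38.p6.

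Several tested probes were available for 24 member genes, with 55 probes. All probes lay on the same side of 0 for 17 of them (70.8%), against 60.6% of 6673 gene names with several tested probes. The median gap between the highest and lowest probe was 0.06, against 0.12, and most of these differences were themselves close to 0. The gap was under 0.2 for 20 genes (83.3%), against 68.7%. The 7 genes with probes on both sides of 0 were Ndufa3, Ndufa12, Ndufv2, Ndufv3, Atp5b, Atp5h and Atp5j2, and in none of the 24 genes were all probes called. Of 8 pairs of probes that share from 20 to 54 bases, 7 had the same sign, with gaps from 0.002 to 0.19. The 10 tested probes designed on GenBank or Ensembl entries included 1 called probe, and the 98 on RefSeq mRNAs included 3.

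**Figure D4:**
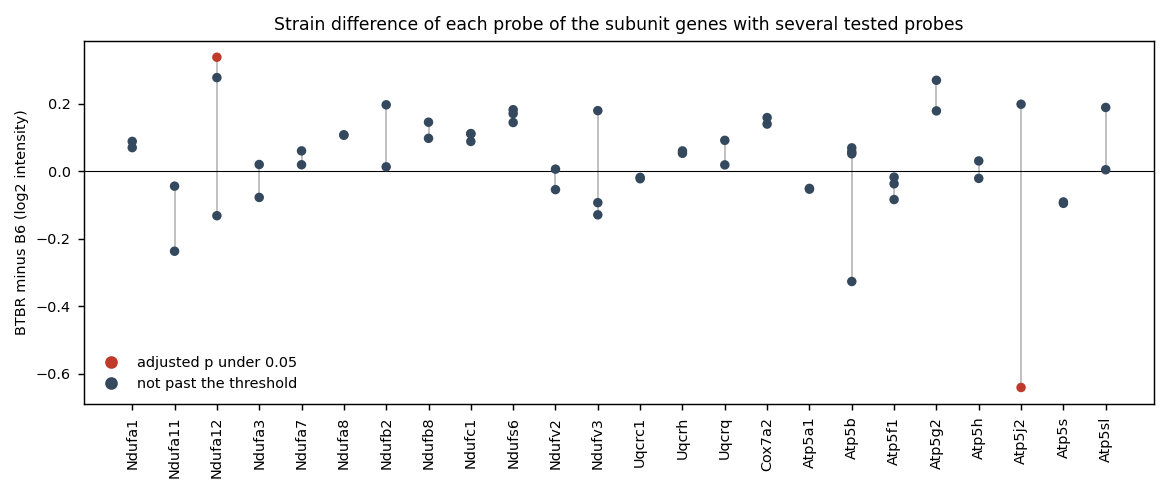
Strain difference (BTBR minus B6, log2 intensity, vertical axis) of each probe of the 24 subunit genes with more than 1 tested probe, with a gray line joining the probes of a gene. Red points were called by limma, and the widest gaps are those of Atp5j2, from -0.64 to 0.20, Ndufa12, from -0.13 to 0.34, and Atp5b, from -0.33 to 0.07.

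The median absolute strain difference was 0.067 over the members and 0.101 over all probes, in both cases below the median SD within a strain given above. The SD within a strain exceeded 0.3 for 6 member probes (5.56%), against 10.4% of all probes tested. Besides Cox6a2, Cox8b and Cox6b2 these were Ndufs3, a core subunit of complex I, Ndufb3, an accessory subunit of its membrane arm, and Cox6b1, the common isoform of a complex IV subunit on the side of cytochrome c. Ndufs3 read 14.55, 15.43, 15.02 and 15.50 in B6 and 15.25, 15.49, 14.01 and 15.49 in BTBR. Ndufb3 read 14.95, 15.45, 15.17 and 15.58 in B6 and 15.07, 15.42, 14.14 and 15.45 in BTBR. Cox6b1 read 13.62, 14.15, 14.14 and 14.39 in B6 and 14.04, 14.50, 13.50 and 14.51 in BTBR. In all 3 genes B6 replicate 1 was the lowest B6 array and BTBR replicate 3 the lowest of all 8. These arrays also had the smallest share of probes well above background in their strain, 56.8% and 61.9%, and the part of that in the result was not tested. Their strain differences were -0.06, -0.27 and 0.06, with limma adjusted p values of 0.95, 0.69 and 0.93.

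**Figure D5:**
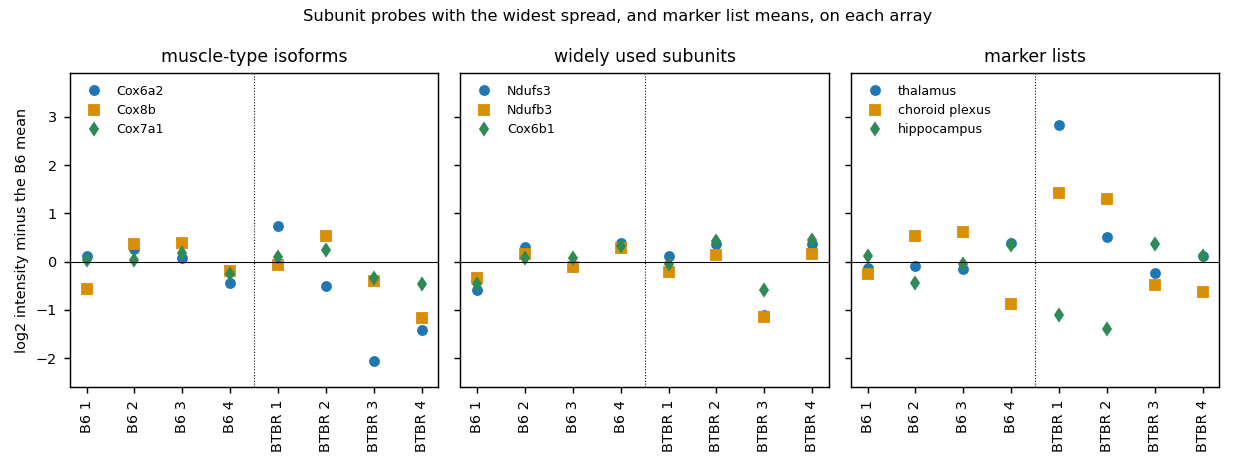
Log2 intensity minus the B6 mean (vertical axis) on each of the 8 arrays for the muscle isoforms Cox6a2, Cox8b and Cox7a1, for Ndufs3, Ndufb3 and Cox6b1, and for the means of the thalamus, choroid plexus and hippocampus marker lists. BTBR replicate 1 is high in Cox6a2 and in the thalamus list, and BTBR replicate 3 is low in Ndufs3, Ndufb3 and Cox6b1.

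The slide by strain term passed a limma adjusted p under 0.05 for none of the members and for 0% of all probes. At an unadjusted p under 0.05 it passed for 5 of 108 member probes, those of Cox6a2, Cox6b2, Cox7a1 and Uqcrh and the called probe of Atp5j2, against 9.93% of all probes. The 3 probes of Ndufs6, a small subunit near the NADH-binding module, were higher by 0.29 to 0.33 within slide 1 and by 0.00 to 0.04 within slide 2, and none was called.

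Genes that work with these complexes were counted from lists that hold no gene matched by the name rule. The lists include Cyc1 and Ndufab1, subunits of complexes III and I that the name rule left out, and neither was called. Of 69 such genes tested, 8 had a called probe (11.6%, against 10% of all gene names), 4 higher and 4 lower. The count was 5 without B6 replicate 2 and 5 without B6 replicate 3.
In complex II, which feeds electrons from succinate, 1 of 4 genes was called. It was Sdhb, the iron-sulfur subunit, which fell from 14.58 ± 0.04 to 13.96 ± 0.04 (SD, n = 4 each), 1.53-fold lower, with a limma adjusted p of 0.000143. Among 7 genes of electron carriers, the ubiquinone synthesis genes Coq7 and Coq9 were up-regulated and none was down-regulated. Both probes of Coq7 rose, by 0.57 and 0.61, and Coq9 rose by 0.37 (limma adjusted p of 0.000268, 0.000449 and 0.0223).
Among 31 tested assembly factors, 3 were called lower and 1 higher, by the called probe with the smallest p of each gene. Oxa1l, which inserts subunits into the inner membrane, had its most changed probe at 9.59 in B6 and not well above background on any BTBR array, at least 3.55-fold lower (limma adjusted p 5.59e-07, and 5.62e-07 with no filter on dim probes). A second Oxa1l probe fell by 0.68 (limma adjusted p 0.000530). The brightest Oxa1l probe, at 12.55 in B6 and 12.77 in BTBR, differed by 0.22 in the other direction (limma adjusted p 0.11). All its BTBR values were above the B6 values. Acad9, needed to assemble complex I, fell by 1.19 at its RefSeq probe (limma adjusted p 6.27e-05), and its Ensembl probe was at least 1.93-fold lower, since it was not well above background on any BTBR array. Lyrm7, a chaperone of the Rieske protein, fell by 0.74 at the AK079070 probe (limma adjusted p 0.000789). Its other probes, the RefSeq one among them, were not well above background on any array. Cox18, chosen for naming after its values were seen, rose by 0.58 at one probe and differed by -0.01 at the other (limma adjusted p 0.032 and 0.98). Whether the probes of these assembly factors, or of Sdhb, match the transcripts of both strains equally was not tested. The citric acid cycle list had 1 called gene of 13, Idh3a, a subunit of isocitrate dehydrogenase, higher by 0.27 (limma adjusted p 0.0214). Among 14 regulators of mitochondrial biogenesis, including Ppargc1a, Nrf1, Gabpa and Tfam, limma called none, and the median difference was 0.00.

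Around the 4 genes with a called probe, other genes within 1 Mb were also tested on mm9. Near Cox7b2, 3 of 12 probes (25%) were called, against 7.61% of all probes, all of them for Gabra2, a GABA-A receptor subunit gene, which was higher by 1.35, 0.95 and 1.32, while Gabra4, the nearest neighbor, differed by 0.05. Near Cox7c 1 of 7 probes (14.3%) was called. It is A_52_P645285, listed as TC1666890 and placed 1.03 kb from the Cox7c probe, and it differed by -0.48, at 10.37 in B6 and 9.90 in BTBR (limma adjusted p 0.0145). Near Ndufa12 5 of 35 probes (14.3%) were called and near Atp5j2 5 of 33 (15.2%). The last 5 included all 3 probes of Cpsf4, an mRNA 3' processing gene, which were higher by 0.32, 0.46 and 0.34.

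Promoters, taken as the 250 bases before and 50 after a gene's start in RefSeq (GRCm38.p6), were found for 66 of the 79 members. The letters GCGCATGCG, the core of the NRF1 site, were present on either strand in 8 of them (12.1%), against 2.61% of 17492 genes. AAGATGGCG, which YY1 binds, was also in 8 (12.1%) against 2.14%, CCGGAAG, a site of ETS factors such as GABP, in 14 (21.2%) against 12.9%, and TATAAA in 7 (10.6%) against 14.8%. Of the genes with a called probe, the Cox7b2 promoter held TATAAA alone, that of Atp5j2 held AAGATGGCG, and those of Cox7c and Ndufa12 held none of the 4 in this window.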

How the data were processed

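RNA from 8 hippocampi, 1 mouse per array, was hybridized by the authors to Agilent 4X44K arrays. The deposited intensity values were read, per the file headers, with Feature Extraction 10.7.3.1 (9.1 in the submitters' processing notes). The deposited log2 matrix was background subtracted and quantile normalized by the authors, with signal column and offset not given in the sources used here, and served as an alternative.
Mean spot intensity minus local median background was floored at 0.5, raised by 50, put on the log2 scale and quantile normalized over the 8 arrays. Control probes, 154 outlier-flagged probes and probes well above background on under 75% of the arrays of both strains were left out. Spots of 1 probe were merged by median. Limma 3.58.1 (R 4.3.3), tested on simulated data, fitted strain alone, with Benjamini-Hochberg adjustment over 27982 probes. The rank product used 100 permutations of probes within arrays. A bound ("at least") sets the bright strain against, on each dim array, the higher of its own signal and the lowest signal well above background. Promoter letters were searched on both strands, and motifs could overlap.
Genes were named by a rule (Cox7b2, genes with a called probe, the largest rise and fall of each complex, probes in disagreement or near background, up to 3 called genes per pathway list) or to describe their complex after their values were seen. Members, gene lists and marker lists were chosen with earlier results of these data known. The alternatives were other backgrounds, scalings, filters, thresholds and blocks, single slides, and each array left out in turn.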

Additional observations from a re-analysis of the deposited data

Results flagged for a closer look

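A single array stood apart in its strain for 2 of the 13 named probes, which were checked in 26 groups of 4 arrays, and chance flags about 1 group in 20. For Cox7b2, B6 replicate 1 read 8.82 and the other B6 arrays read from 8.38 to 8.41, so that the gap made up 0.943 of the whole B6 range. For probe A_52_P287002 of Atp5g2, BTBR replicate 3 read 14.72 and the other BTBR arrays read from 15.30 to 15.41, a gap of 0.832 of the range.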

How the results depend on the processing

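Between 2 and 6 member genes were called over the alternatives (4 in the main analysis). With the 103 probes of structural subunits alone, 4 member genes were called. Cox7b2 kept its direction and call under all 24 alternatives tried (0.80 to 1.83). With only probes well above background on all 8 arrays, the Cox7c probe was left out and 3 member genes were called. Within slide 2 only 2 member probes of 2 genes were called. With each array left out in turn, 4 or 5 member genes, 4 or 5 member probes and 5 to 9 of the other pathway genes (8 in the main analysis) were called. That last count was 5 with the processed signal, at an adjusted p under 0.01 and with the rank product.
The call of Ndufa12 A_51_P458538 was lost under 6 alternatives (adjusted p up to 0.36, and 0.053 with the replicate block), and that of Atp5j2 A_52_P550474 under 2. Ndufc2 was called under 3 alternatives, slide as a block among them (adjusted p 0.044). With 1 median per gene, Atp5j2 A_51_P224216 became -0.22 and Ndufa12 A_52_P724940 became 0.34, since that value stands for all probes. The dim Ndufv2 probe A_51_P212342 changed sign with the processed signal (-0.13), the gene median (-0.024), slide 2 (-0.0013) and BTBR replicates 3 and 4 alone (-0.0052), and ranged from -0.040 to 0.060 with single arrays left out. The cause was not tested. BTBR replicates 3 and 4 alone was chosen after seeing the data.
Deviations of mice with the same number correlated from -0.14 to 0.51, so the numbers were not taken as pairs. The replicate block left 3 member genes and 5 other pathway genes called. For Cox7c, Cox4i2, Cox8c and the dimmest probes, signal over background limits what can be said, and 4 arrays per strain limit the rest.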
